A study of Homo sapiens with 9 samples.

Results

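The 10 receptors described here were *AXL*, *EGFR*, *ERBB2*, *ERBB3*, *MET*, *NGFR*, *PDGFRB*, *FGFR1*, *IGF1R* and *KIT*, cell-surface receptors tied to dedifferentiation of melanoma and to resistance against BRAF inhibitors. They were taken by gene symbol, 10 of the 20463 annotated genes in the count table. In A375 melanoma cells given Salvianolic acid B (SalB) for 48 h, they did not move as a block. *NGFR* and *AXL* were higher at each higher dose, *PDGFRB* and *ERBB2* were above untreated cells at both doses with their highest means at 100 µM, and *ERBB3* and *IGF1R* were high at 100 µM but at or under the untreated level at 200 µM. *MET*, *EGFR* and *FGFR1* had their highest means at 200 µM, and *KIT* had no read in any library.

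Receptor tyrosine kinases bind growth factors outside the cell, pair up, phosphorylate each other and pass the signal to the RAS-ERK and PI3K-AKT pathways. *NGFR*, the low-affinity neurotrophin receptor p75, has no kinase domain and marks a neural crest-like melanoma state. In melanoma with mutant BRAF, raised receptor levels are a known way for cells to keep these pathways active under BRAF or MEK inhibitors, and AXL, EGFR, PDGFRB and NGFR are often high where the melanocyte regulator MITF is low. *KIT*, the stem cell factor receptor, belongs to the melanocyte lineage.

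The study used A375, an established human melanoma line with an activating BRAF mutation, so every group is the same line in culture. Groups were untreated cells, cells with 100 µM SalB and cells with 200 µM SalB, a phenolic compound of *Salvia miltiorrhiza*; a vehicle for the untreated cells is not stated in the sources used here. Each group had 3 libraries, described as biological replicates in the series text, all with the batch label 1. Poly-A RNA was sequenced, and the tables held 27348621 to 30629685 reads per library. Sums over a culture cannot tell apart fewer cells of a type and less RNA per cell.

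The third 200 µM library stood apart from its group. Mitochondrially encoded mRNA took 2.09 to 2.29% of counts in untreated cells, 2.83 to 3.11% at 100 µM, and 1.85%, 1.81% and 4.69% in 200 µM replicates 1, 2 and 3. The gap in log2 level between the 12.5% most GC-rich and the 12.5% most GC-poor genes, relative to the untreated mean, was −0.16 to 0.16 in untreated cells, 0.69 to 0.93 at 100 µM, and 0.48, 0.96 and −0.31 in 200 µM replicates 1, 2 and 3. Values without this library are given for *NGFR*, *PDGFRB*, *ERBB2*, *ERBB3*, *IGF1R*, *MET* and *EGFR*, and the dependence on GC content is described after them. *SOX10*, a defining gene of the melanocyte lineage, averaged 341 ± 18.8 reads per 1000000 reads of a library (CPM) in untreated cells, 529 ± 5.67 CPM at 100 µM and 472 ± 72.4 CPM at 200 µM (SD, n = 3 each), whereas the pigment gene *TYR* had at most 3 reads in any library.

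Differences were tested on the counts with edgeR across 13968 genes, 9 of them receptors, with calls at an adjusted p under 0.05. At 200 µM against untreated cells, 7 of the 9 tested receptors rose and 1 fell. Over all tested genes 37.3% were called in that comparison, 19.8% higher and 17.5% lower. The median log2 fold change of the 9 receptors was 0.54, beside 0.003 over all genes. At 100 µM against untreated cells, 6 receptors rose and 1 fell, with a median of 0.74 beside −0.01 over all genes, of which 37.1% were called (18.9% higher, 18.2% lower). Between the doses, 200 µM over 100 µM, 5 receptors were higher and 3 lower, with a median of 0.32 beside −0.006 over all genes, of which 44.4% were called (22.4% higher, 21.9% lower). These comparisons share libraries with one another, so they are given side by side and not as support for each other. The ranges of the groups lay apart for 9 of 9 receptors at 200 µM against untreated cells (48.8% of all tested genes), for 7 at 100 µM against untreated cells (67.0%) and for 9 at 200 µM against 100 µM (53.3%). Leaving out single libraries left 5 to 7 receptors higher and 1 lower at 200 µM, and 6 higher with 0 or 1 lower at 100 µM. The count between the doses moved most: it was 3 higher and 3 lower without 100 µM replicate 2, 4 and 2 without 100 µM replicate 1, 4 and 3 without 100 µM replicate 3, and 4 and 4 without 200 µM replicate 2. With only those 2 groups in the fit it was 3 higher and 3 lower.

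**Figure D1:**
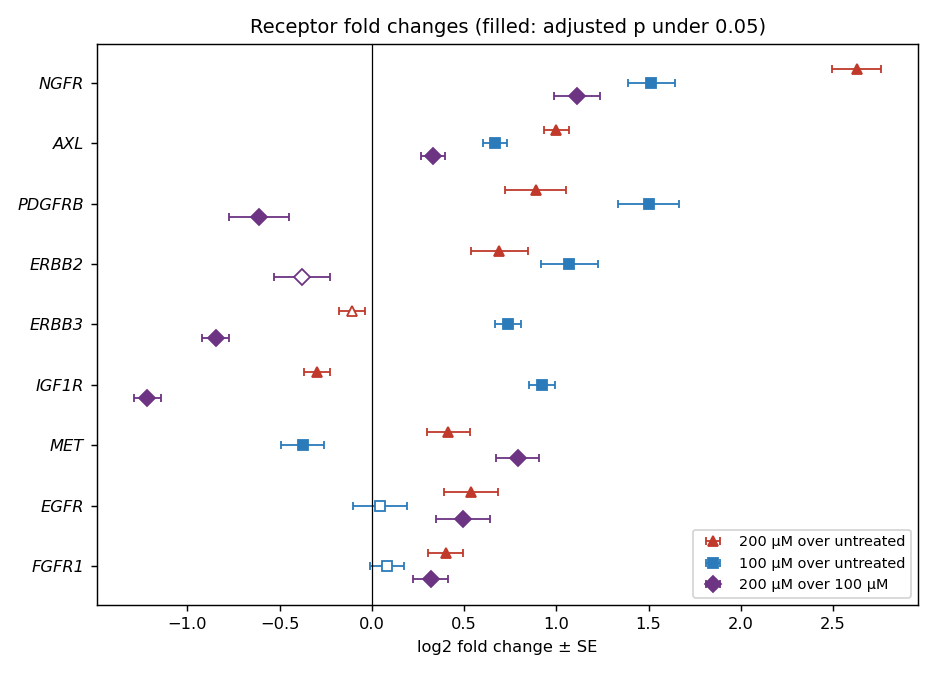
Log2 fold change with its standard error (horizontal axis) for the 9 receptors with reads (rows), with triangles for 200 µM over untreated cells, squares for 100 µM over untreated cells and diamonds for 200 µM over 100 µM; filled marks have an adjusted p under 0.05. *NGFR* reaches 2.63 at 200 µM, while the diamonds of *ERBB3* and *IGF1R* lie at −0.85 and −1.22.

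The bases just before the start sites of 4 receptors are shown because these genes followed different courses over the doses: *AXL* (higher at each dose), *PDGFRB* (highest mean at 100 µM), *IGF1R* (high at 100 µM only) and *MET* (lower at 100 µM, higher at 200 µM). They come from RefSeq (GRCh38.p14), read 5′ to 3′ on the gene's strand, and capitals mark each GC box match (GGGCGG on either strand). *AXL* lies at chr19:41218973-41219202 (+), *PDGFRB* at chr5:150155873-150156095 (−), *IGF1R* at chr15:98648289-98648538 (+) and *MET* at chr7:116671946-116672195 (+); 20 bases of *AXL* and 27 of *PDGFRB* that GENCODE places inside the gene were left off.
AXL: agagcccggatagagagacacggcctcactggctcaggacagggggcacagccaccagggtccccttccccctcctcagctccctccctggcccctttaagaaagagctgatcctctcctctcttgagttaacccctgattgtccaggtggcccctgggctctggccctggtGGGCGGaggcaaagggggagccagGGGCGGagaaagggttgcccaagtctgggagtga
PDGFRB: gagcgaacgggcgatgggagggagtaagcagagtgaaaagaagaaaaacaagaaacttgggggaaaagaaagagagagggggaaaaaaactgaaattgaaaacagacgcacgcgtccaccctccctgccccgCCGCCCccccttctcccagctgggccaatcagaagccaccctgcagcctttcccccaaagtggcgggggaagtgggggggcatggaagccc
IGF1R: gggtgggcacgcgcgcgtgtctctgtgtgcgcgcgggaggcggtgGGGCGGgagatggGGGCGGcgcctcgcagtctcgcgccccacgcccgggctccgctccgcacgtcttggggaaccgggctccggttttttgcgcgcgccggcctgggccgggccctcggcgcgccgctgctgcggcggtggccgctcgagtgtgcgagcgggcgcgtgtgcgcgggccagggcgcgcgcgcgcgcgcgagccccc
MET: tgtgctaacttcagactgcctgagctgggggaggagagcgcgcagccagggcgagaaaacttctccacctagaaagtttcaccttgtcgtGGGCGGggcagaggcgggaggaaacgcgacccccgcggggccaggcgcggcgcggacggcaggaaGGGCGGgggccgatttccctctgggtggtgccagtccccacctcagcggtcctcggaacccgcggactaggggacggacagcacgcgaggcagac

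The RefSeq table matched 7 of the receptors with 9 start sites: *AXL*, *EGFR*, *ERBB2*, *MET*, *PDGFRB*, *IGF1R* and *KIT*. In the 250 bases before the start, *AXL*, *IGF1R* and *MET* each held 2 GC boxes and *PDGFRB* held 1, counted for *AXL* at the start site shown. The second *AXL* start site, with bases at chr19:41226505-41226754 (+) and a GC content of 54.4%, held none of these motifs. The GC box occurred in 42.6% of all 35116 RefSeq windows of this length. The TATA box TATAAA (10.7% of all windows) and the AP-1 type motif TGANTCA (6.57%) had no match on either strand in the 4 windows shown, and neither did the E-box CACGTG (6.35%). The second start site of *EGFR* held 2 TATA boxes and 2 AP-1 type motifs, and the start site of *ERBB2* held 1 AP-1 type motif. The GC content of these windows was 81.2% for *IGF1R*, 68.4% for *MET*, 64.4% for *AXL* and 58.4% for *PDGFRB*, beside a median of 58.0% over all windows.

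*NGFR* (ENSG00000064300, chromosome 17, 49495293 to 49515017, GRCh38) showed the largest change of the receptors. It had 21.4, 20.8 and 24.4 CPM in the untreated libraries, 66.1, 62.5 and 61.9 CPM at 100 µM, and 141, 158 and 113 CPM at 200 µM. The 3 groups did not overlap, and the third 200 µM library was the lowest of its group. It was 6.18-fold higher at 200 µM than in untreated cells, a log2 fold change of 2.63 ± 0.13 (SE, adjusted p = 2.6e-06). At 100 µM it was 2.86-fold higher (1.52 ± 0.13, adjusted p = 4.8e-05), and 200 µM exceeded 100 µM by 1.11 ± 0.13 on the log2 scale (adjusted p = 1.3e-04). Without the third 200 µM library the 200 µM value was 2.77. Because 22.3% of its exon bases overlap *AC015656.1* on the opposite strand and the sources used here do not say whether counting used strand, part of these reads could belong to that gene.

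*AXL* (ENSG00000167601, chromosome 19, 41219203 to 41261766), the receptor for GAS6, followed the same order with less spread. Its levels were 79.5, 81.0 and 82.2 CPM in untreated cells, 128, 129 and 128 CPM at 100 µM and 166, 166 and 154 CPM at 200 µM. Within each group the libraries lay close together, and no group overlapped another. *AXL* was 2.0-fold higher at 200 µM (log2 fold change 1.00 ± 0.07, adjusted p = 1.1e-05) and 1.59-fold higher at 100 µM (0.67 ± 0.07, adjusted p = 1.2e-04). The step between doses, 0.33 ± 0.07 in favour of 200 µM, was also called (adjusted p = 0.0033). None of the 19 alternative settings moved any of these *AXL* or *NGFR* calls.

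**Figure D2:**
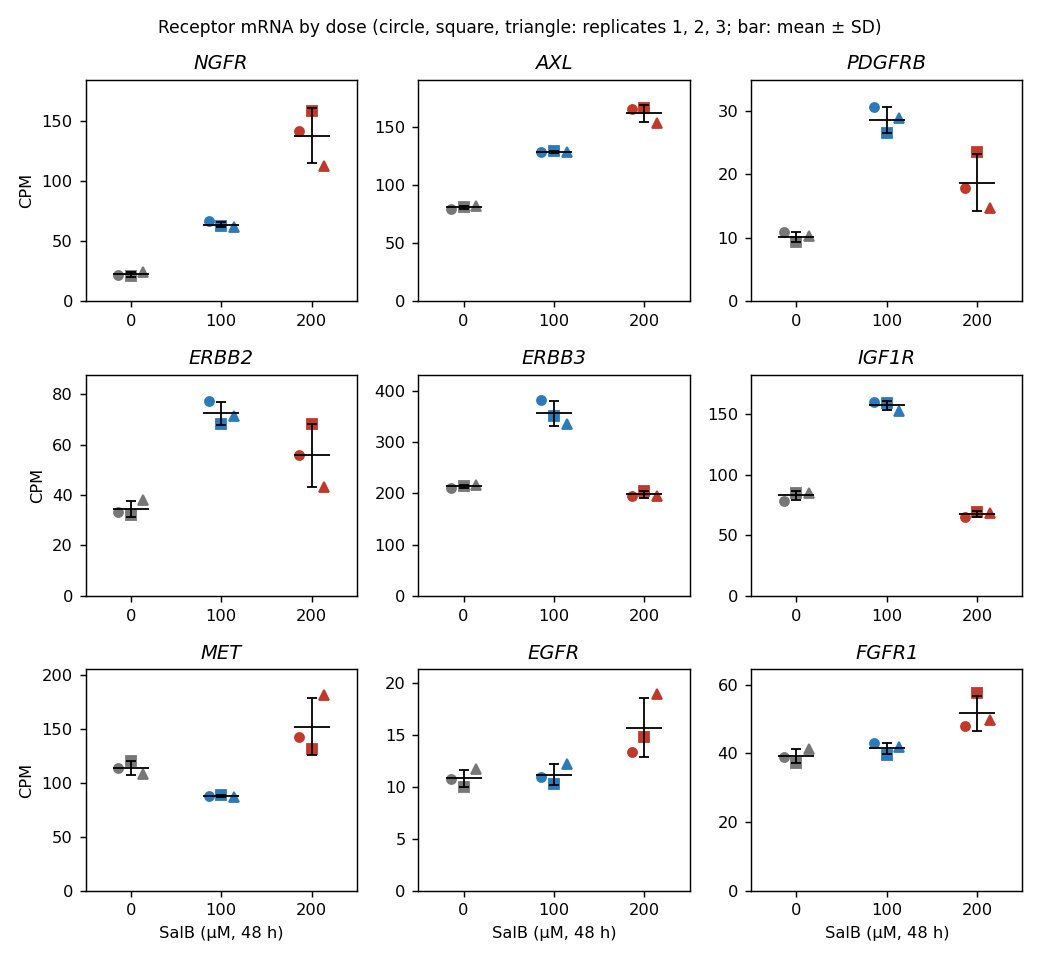
Level in CPM (vertical axis, starting at 0) of the 9 receptors with reads at 0, 100 and 200 µM SalB (horizontal axis), with circles, squares and triangles for replicates 1, 2 and 3 and bars for mean ± SD (n = 3). *NGFR* and *AXL* step up at each dose, while *ERBB3* and *IGF1R* peak at 100 µM and *MET* is lowest there.

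*PDGFRB* (ENSG00000113721, chromosome 5, 150113837 to 150155872), the receptor for PDGF-B and PDGF-D, was raised at both doses. Untreated libraries had 10.9, 9.30 and 10.2 CPM, the 100 µM libraries 30.6, 26.5 and 28.9 CPM, and the 200 µM libraries 17.8, 23.6 and 14.7 CPM. The 200 µM libraries lay between the other groups without overlap and differed most among themselves. The log2 fold change was 0.89 ± 0.17 at 200 µM (adjusted p = 0.0029), or 1.05 without the third library of that dose, and 1.5 ± 0.17 at 100 µM (adjusted p = 2.1e-04). Against 100 µM, 200 µM was lower by 0.61 ± 0.16 (log2 fold change −0.61, adjusted p = 0.014). That last call was lost without the first 100 µM library (adjusted p = 0.051).

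Several markers of fibroblasts were, like *PDGFRB*, highest at 100 µM, but the list as a whole did not follow it at 200 µM. The summed level of the 8 markers was 9.42 to 11.2 CPM in untreated cells, 22.6 to 23.7 CPM at 100 µM and 10.4 to 12.7 CPM at 200 µM, so that the 200 µM and untreated libraries overlapped. Over all genes 18.9% were called higher and 18.2% lower at 100 µM (median −0.01), and 19.8% and 17.5% at 200 µM (median 0.003). Of the 5 markers tested, 3 rose and none fell at 100 µM (median 1.14), and 2 rose and none fell at 200 µM (median −0.27). The rise of *DCN*, a matrix proteoglycan and 1 of those 2, was not called without untreated replicate 1 or 2 or 200 µM replicate 1. The largest part was *LUM*, also a matrix proteoglycan, with means of 7.0, 15.4 and 5.60 CPM in the same order. The endothelial marker *PECAM1* went the other way, with means of 0.789 CPM in untreated cells, 0.313 CPM at 100 µM and 2.80 CPM at 200 µM, while *COL1A2*, *COL3A1* and *CDH5* had at most 5 reads in any library. The part of such cells in the *PDGFRB* result was not tested.

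*ERBB2* (ENSG00000141736, chromosome 17, 39687914 to 39730426) encodes HER2, which binds no ligand itself and pairs with the other ERBB receptors. It measured 33.4, 32.1 and 37.9 CPM in untreated cells, 77.5, 68.2 and 71.5 CPM at 100 µM and 55.7, 68.1 and 43.3 CPM at 200 µM. Both doses lay above all untreated libraries. The second 200 µM library, at 68.1 CPM, lay just under the lowest 100 µM library at 68.2 CPM. *ERBB2* was 1.62-fold higher at 200 µM (0.69 ± 0.15, adjusted p = 0.0072) and 2.10-fold higher at 100 µM (1.07 ± 0.15, adjusted p = 8.6e-04). The log2 difference between the doses, −0.38 ± 0.15 for 200 µM over 100 µM, was not called (adjusted p = 0.072), but it was without the second 200 µM library (−0.57, adjusted p = 0.0064) and with the GC trend removed (−0.21, adjusted p = 0.038). It was also called with the GC trend removed and the third 200 µM library left out (−0.16, adjusted p = 0.040). With the GC trend removed and a block for the replicate number it was not called (−0.21, adjusted p = 0.077). Without the third 200 µM library that difference was −0.23 (adjusted p = 0.081), and the 200 µM value against untreated cells was 0.86 (adjusted p = 6.4e-05).

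*ERBB3* (ENSG00000065361, chromosome 12, 56076799 to 56103505) encodes HER3, the neuregulin receptor with little kinase activity of its own, and *IGF1R* (ENSG00000140443, chromosome 15, 98648539 to 98964530) encodes the receptor for insulin-like growth factors. Both were high at 100 µM and not at 200 µM. *ERBB3* had 209.9, 214 and 217 CPM in untreated cells, 383, 351 and 336 CPM at 100 µM and 194, 206 and 195 CPM at 200 µM. *IGF1R* had 78.6, 85.0 and 85.2 CPM in untreated cells, 159.6, 159 and 153 CPM at 100 µM and 65.1, 69.4 and 68.3 CPM at 200 µM. For both genes the 200 µM libraries lay just under the untreated ones, and the 100 µM libraries lay far above either group.

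At 100 µM *ERBB3* was 1.67-fold higher than in untreated cells (0.74 ± 0.07, adjusted p = 1.0e-04) and *IGF1R* 1.89-fold higher (0.92 ± 0.07, adjusted p = 2.9e-05). At 200 µM *IGF1R* fell by 0.29 ± 0.07 on the log2 scale (adjusted p = 0.010). *ERBB3* differed by −0.11 ± 0.07, which was not called (adjusted p = 0.27) except with the GC trend removed (−0.17, adjusted p = 0.037, and −0.21, adjusted p = 0.0014, without the third 200 µM library as well). With the GC trend removed and a block for the replicate number, *ERBB3* was not called (−0.17, adjusted p = 0.081). Set against 100 µM directly, 200 µM was lower by 1.80-fold for *ERBB3* (−0.85 ± 0.07, adjusted p = 2.3e-05) and by 2.32-fold for *IGF1R* (−1.22 ± 0.07, adjusted p = 3.2e-06). Leaving out the third 200 µM library gave −0.84 and −1.23 for these differences.

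*MET* (ENSG00000105976, chromosome 7, 116672390 to 116798386), the receptor for hepatocyte growth factor, went the other way at the lower dose. Its levels were 114, 121 and 108 CPM in untreated cells, 87.8, 89.3 and 87.1 CPM at 100 µM and 143, 132 and 182 CPM at 200 µM. The groups did not overlap, and the third 200 µM library was the highest. *MET* rose by 0.42 ± 0.12 on the log2 scale at 200 µM (adjusted p = 0.021), fell by 0.37 ± 0.12 at 100 µM (adjusted p = 0.032) and was 1.73-fold higher at 200 µM than at 100 µM (0.79 ± 0.12, adjusted p = 6.1e-04).

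The *MET* step between doses kept its call in all 19 alternatives. Its calls against untreated cells depended on single libraries and on the setting. With only the 2 groups compared in the fit, the 200 µM call was lost (adjusted p = 0.063). The 100 µM call was lost with a block for the replicate number, alone or with the GC trend removed (adjusted p = 0.063 and 0.067). At 200 µM the call was also lost without untreated replicate 1 or 3 (adjusted p = 0.068 and 0.078), and the value was 0.28 without the third 200 µM library (adjusted p = 0.0033). At 100 µM it was lost without any 1 of the 6 libraries compared (adjusted p = 0.055 to 0.11), and with the GC trend removed the log2 fold change was −0.20 (adjusted p = 0.027). The 100 µM call remained with only the 2 groups compared in the fit (−0.37, adjusted p = 7.4e-05). It also remained without the third 200 µM library (−0.35, adjusted p = 4.1e-04).

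*EGFR* (ENSG00000146648, chromosome 7, 55019021 to 55211628), the receptor for EGF, TGF-α, amphiregulin and HB-EGF, was among the lower receptors. It had 10.7, 9.99 and 11.7 CPM in untreated cells, 11, 10.2 and 12.2 CPM at 100 µM and 13.4, 14.8 and 18.9 CPM at 200 µM. Untreated and 100 µM libraries overlapped, and the 200 µM libraries lay above both, and the third 200 µM library was the highest. The log2 fold change was 0.54 ± 0.15 at 200 µM (adjusted p = 0.019) and 0.40 without the third 200 µM library (adjusted p = 0.016). At 100 µM it was 0.04 ± 0.15 (adjusted p = 0.84). The step from 100 µM was 0.49 ± 0.15 (adjusted p = 0.023) and 0.33 when the third 200 µM library was left out (adjusted p = 0.037). The first of these calls was lost without untreated replicate 1 or 2 (adjusted p = 0.062 and 0.075), and the step between doses without 100 µM replicate 1 or 2 (adjusted p = 0.069 and 0.096). With only the 2 groups compared in the fit both calls were lost (adjusted p = 0.0503 and 0.056).

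*FGFR1* (ENSG00000077782, chromosome 8), a receptor for fibroblast growth factors, had 39.0, 37.2 and 41.3 CPM in untreated cells, 42.9, 39.6 and 41.8 CPM at 100 µM and 47.9, 57.6 and 49.6 CPM at 200 µM. The untreated and 100 µM libraries overlapped, and all 200 µM libraries lay higher. It was 1.32-fold higher at 200 µM (0.40 ± 0.09, adjusted p = 0.0096), while the log2 fold change at 100 µM was 0.08 ± 0.09 (adjusted p = 0.53). The excess of 200 µM over 100 µM, 0.32 ± 0.09 (adjusted p = 0.023), lost its call without 100 µM replicate 2 or 3 or 200 µM replicate 2 (adjusted p = 0.11, 0.078 and 0.072). That call was also lost with total-count scaling, with a block for the replicate number and with only these 2 groups fitted (adjusted p = 0.093, 0.060 and 0.066). *KIT* (ENSG00000157404, chromosome 4, 54657918 to 54740715) had 0 reads in all 9 libraries, and a count of 0 allows up to 3 reads per library, or 0.0963 to 0.119 CPM.

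Levels of different receptors were compared as RPKM, the CPM divided by the exon length in kilobases. That length took in all annotated exons of a gene, merged over its transcripts. The order and the shares of the receptors depend on it, and the ranges cover the libraries but not the choice of length. In untreated cells *ERBB3* was the highest at 23.6 ± 0.393 RPKM, followed by *MET* at 16.2 ± 0.901 and *AXL* at 15.7 ± 0.268, whose ranges overlapped (SD, n = 3 each). *IGF1R* at 5.95 ± 0.272 and *NGFR* at 5.35 ± 0.474 RPKM also overlapped, and *ERBB2* at 3.34, *FGFR1* at 2.83, *PDGFRB* at 1.42 and *EGFR* at 0.863 RPKM followed with ranges apart. At 100 µM the order was *ERBB3* at 39.5 ± 2.68, *AXL* at 24.9 ± 0.110, *NGFR* at 15.3 ± 0.554, *MET* at 12.5 ± 0.163, *IGF1R* at 11.3 ± 0.275, *ERBB2* at 7.02 ± 0.455, *PDGFRB* at 4.01 ± 0.288, *FGFR1* at 3.0 ± 0.122 and *EGFR* at 0.890 ± 0.0806 RPKM, with no neighbours overlapping. At 200 µM *NGFR* at 33.1 ± 5.52 and *AXL* at 31.4 ± 1.38 RPKM stood at the top and overlapped each other. *ERBB3* at 22.0 ± 0.713 and *MET* at 21.6 ± 3.74 overlapped next, and so did *ERBB2* at 5.40 ± 1.20 and *IGF1R* at 4.85 ± 0.161 RPKM, ahead of *FGFR1* at 3.73, *PDGFRB* at 2.62 and *EGFR* at 1.25 RPKM.

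Summed over the receptors, the per-length level was 74.0, 75.6 and 76.3 RPKM in untreated cells, 123, 117 and 115 RPKM at 100 µM and 125, 132 and 121 RPKM at 200 µM. Both doses lay above untreated cells, and the doses overlapped each other. The make-up of the sum differed. *NGFR* made up 7.10% of it in untreated cells, 12.9% at 100 µM and 26.2% at 200 µM. *ERBB3* made up 31.4% in untreated cells, 33.3% at 100 µM and 17.4% at 200 µM, and *IGF1R* 7.90%, 9.52% and 3.85% in the same order. The share of *AXL* was 20.8%, 21.1% and 24.9%, and that of *MET* 21.6%, 10.6% and 17.3%.

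**Figure D3:**
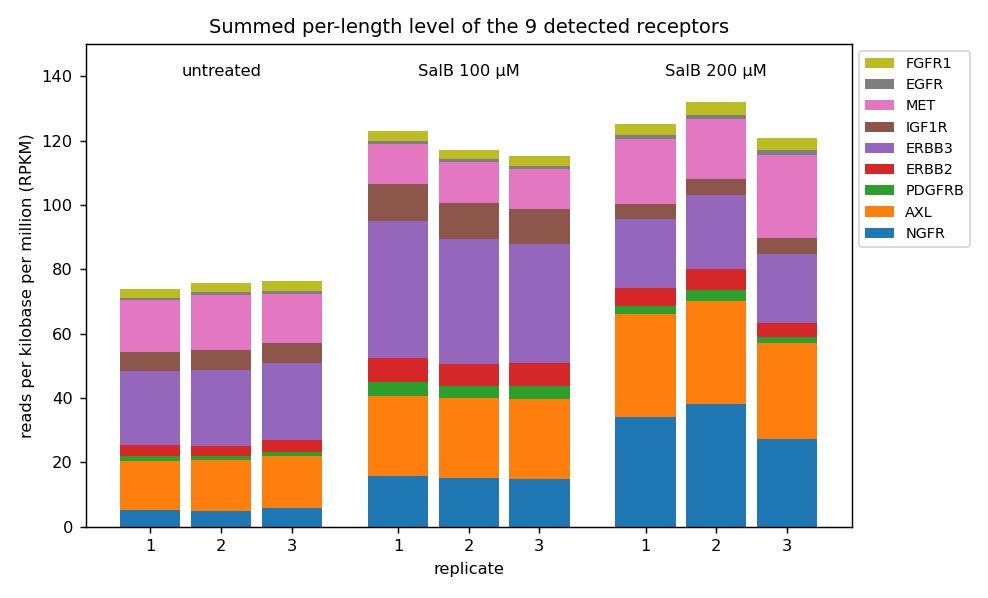
Stacked RPKM (vertical axis) of the 9 receptors with reads in each of the 9 libraries (horizontal axis, replicates 1 to 3 within each group), 1 colour per receptor. Untreated stacks reach 74.0 to 76.3 RPKM and treated stacks 115 to 132 RPKM, with the *NGFR* layer thickest at 200 µM.

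Removing the trend of counts on GC content from each library tested how far these values depended on base composition. *NGFR* has the most GC-rich exons of the 9 receptors with reads, at 62.8%, and *MET* the most GC-poor, at 42.4%. With the trend removed the *NGFR* log2 fold change was 2.51 at 200 µM and 1.14 at 100 µM, *AXL* had 0.94 and 0.49, *PDGFRB* 0.79 and 1.23, and *ERBB2* 0.59 and 0.80. *IGF1R* had −0.35 at 200 µM and 0.79 at 100 µM. The correction changed no direction among the receptors called against untreated cells, and every 1 of those calls remained.

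**Figure D4:**
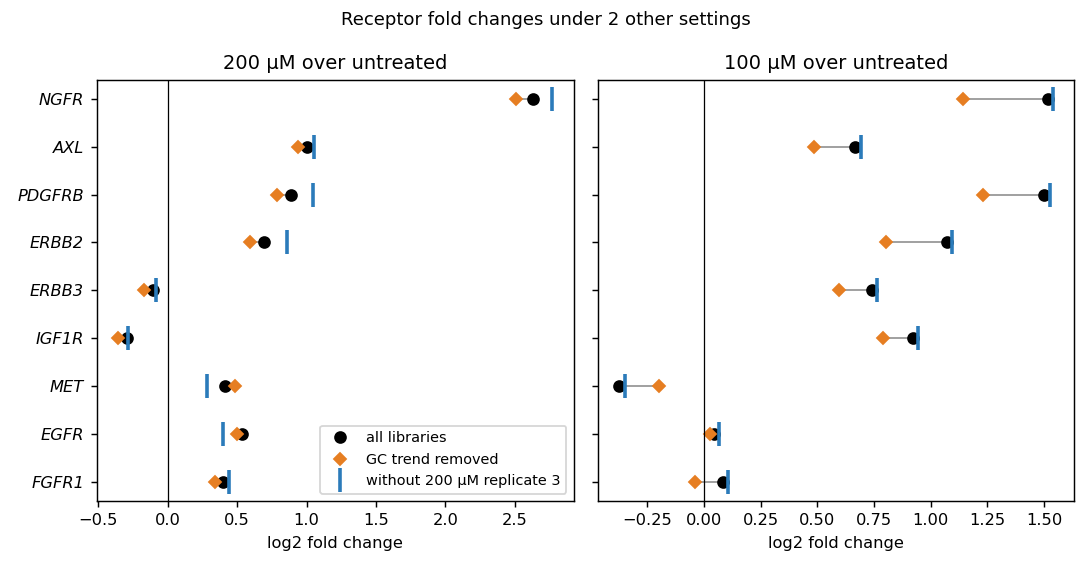
Log2 fold change (horizontal axis) of the 9 receptors (rows) at 200 µM over untreated cells (left) and 100 µM over untreated cells (right), with dots for all libraries, diamonds after removing the GC trend and bars without the third 200 µM library. *NGFR* at 100 µM moves from 1.52 to 1.14 under the GC correction, and *MET* there from −0.37 to −0.20.

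Of the 28 ligands listed for these receptors, 19 had enough reads to test. At 200 µM 5 rose and 4 fell, with a median log2 fold change of 0.08, where 19.8% of all genes were called higher and 17.5% lower. At 100 µM 1 rose and 7 fell, with a median of −0.16, where 18.9% of all genes were called higher and 18.2% lower. With the GC trend removed 2 rose and 5 fell at 100 µM, and 3 rose and 8 fell when the third 200 µM library was left out as well. The EGFR ligands split: *HBEGF*, the membrane-anchored growth factor HB-EGF, had 32.6 ± 0.309 CPM at 200 µM against 8.84 ± 0.727 CPM in untreated cells (SD, n = 3 each; log2 fold change 1.88 ± 0.10 SE, adjusted p = 4.0e-06) but fell by 0.82 at 100 µM (adjusted p = 4.9e-04). *TGFA*, encoding TGF-α, had 78.8, 69.8 and 67.5 CPM at 200 µM against 227, 229.7 and 217 CPM in untreated cells, a log2 fold change of −1.64 ± 0.08 (adjusted p = 2.7e-06). *AREG*, encoding amphiregulin, fell by 2.31 ± 0.38 at 100 µM at a level of about 1 CPM (0.248 ± 0.0658 against 1.25 ± 0.402 CPM).

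*KITLG*, encoding the KIT ligand, rose by 1.33 ± 0.15 at 200 µM (adjusted p = 2.0e-04) in cells without *KIT* reads. Of the PDGF receptor ligands, *PDGFB* rose by 0.90 ± 0.26 at 200 µM and 1.05 ± 0.26 at 100 µM, and *PDGFD* fell by 1.21 ± 0.12 at 200 µM. *HGF*, the MET ligand, fell by 2.21 ± 0.56 at 100 µM, from low counts of 7 to 19 reads at 100 µM against 31 to 100 reads in untreated libraries. The *HGF* call was lost without untreated replicate 2 or 100 µM replicate 1 or 2. The *PDGFB* call was lost without untreated replicate 1 at either dose, and at 200 µM also without untreated replicate 3 or 200 µM replicate 1 or 2. Counts were also low for *BTC*, which fell by 1.93 at 100 µM, with 9 to 24 reads there against 51 to 80 in untreated libraries. *NRG4*, a neuregulin gene of which 38.1% of exon bases overlap *FBXO22*, fell by 2.84 at 200 µM, with 3 to 7 reads against 26 to 40. Ligand counts moved with single libraries. At 200 µM they were 3 higher and 3 lower without untreated replicate 1 or 2 or 200 µM replicate 1, and 3 higher and 4 lower without untreated replicate 3 or 100 µM replicate 3. At 100 µM 4 fell without untreated replicate 2 or 100 µM replicate 1 or 2.

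The IGF axis changed strongly around *IGF1R*. IGF-binding proteins hold insulin-like growth factors in solution, and 6 of 8 listed genes could be tested, with 2 higher and 3 lower at 200 µM, and 3 higher and 2 lower at 100 µM. The medians were −0.43 and 0.44, and over all genes 37.3% were called at 200 µM and 37.1% at 100 µM. *IGFBP3*, the main carrier of IGF in blood, had 1391, 1372 and 1380 CPM in untreated cells, 145, 148 and 150.2 CPM at 100 µM and 349.7, 332 and 382 CPM at 200 µM. All treated libraries lay under all untreated ones, with log2 fold changes of −1.96 ± 0.07 at 200 µM and −3.23 ± 0.07 at 100 µM (adjusted p = 5.6e-07 and 3.7e-08). *IGFBP5* had 6.83, 5.93 and 6.72 CPM in untreated cells, 31.8, 31.3 and 31.2 CPM at 100 µM and 0.326, 0.142 and 0.159 CPM at 200 µM. It rose by 2.27 ± 0.15 at 100 µM, and at 200 µM, with 9, 4 and 4 reads, it fell by 4.92 ± 0.22.

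*IGF2R*, which clears IGF2, rose by 1.12 ± 0.10 at 200 µM and 1.08 ± 0.10 at 100 µM. *IGFBP6* fell by 0.78 ± 0.20 at 200 µM and 1.01 ± 0.20 at 100 µM, and *IGFBP4* rose by 0.59 ± 0.19 and 0.88 ± 0.19. The *IGFBP4* call at 200 µM was lost without each single library other than the third 200 µM one, which leaves 1 higher and 3 lower genes in the list there.

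Adaptors and effectors that carry receptor signals were called higher in 8 of 23 genes at 200 µM (median 0.20) and in 10 of 23 at 100 µM (median 0.29), with none lower at either dose. Over all genes 19.8% were called higher at 200 µM and 18.9% at 100 µM. With the GC trend removed, 12 adaptors rose and 4 fell at 200 µM, and 12 rose and 1 fell at 100 µM, so the absence of lower calls depended on that setting. The insulin receptor substrates, docking proteins of IGF1R, differed by dose. *IRS1* had 7.35, 8.61 and 7.87 CPM in untreated cells, 25.9, 26.5 and 27.4 CPM at 100 µM and 8.20, 8.62 and 10.3 CPM at 200 µM, so that its 200 µM and untreated libraries overlapped. It rose by 1.74 ± 0.12 at 100 µM (adjusted p = 1.5e-05) and was at 0.18 ± 0.12 at 200 µM (adjusted p = 0.25). *IRS2* had 47.4, 47.0 and 46.8 CPM in untreated cells, 59.9, 59.7 and 65.1 CPM at 100 µM and 137, 115 and 126 CPM at 200 µM, with no overlap between groups. Its log2 fold change was 1.42 ± 0.09 at 200 µM (adjusted p = 6.6e-06) and 0.39 ± 0.09 at 100 µM, where it was 0.09 and not called with the GC trend removed.

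*GAB2*, a docking protein, rose by 0.92 ± 0.10 and *SHC1*, an adaptor upstream of RAS, by 0.67 ± 0.14 at 200 µM. The PI3K subunits *PIK3R2* and *PIK3R3* rose by 1.16 ± 0.10 and 0.70 ± 0.08 at 100 µM, but 87.3% and 17.4% of their exon bases overlap *AC007192.1* and *AL358075.4*, so their counts are uncertain. Leaving out any 1 untreated library reduced the adaptors called at 200 µM to 4, and leaving out the second or the third 200 µM library gave 2 lower genes at 100 µM, with 11 and 14 higher.

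**Figure D5:**
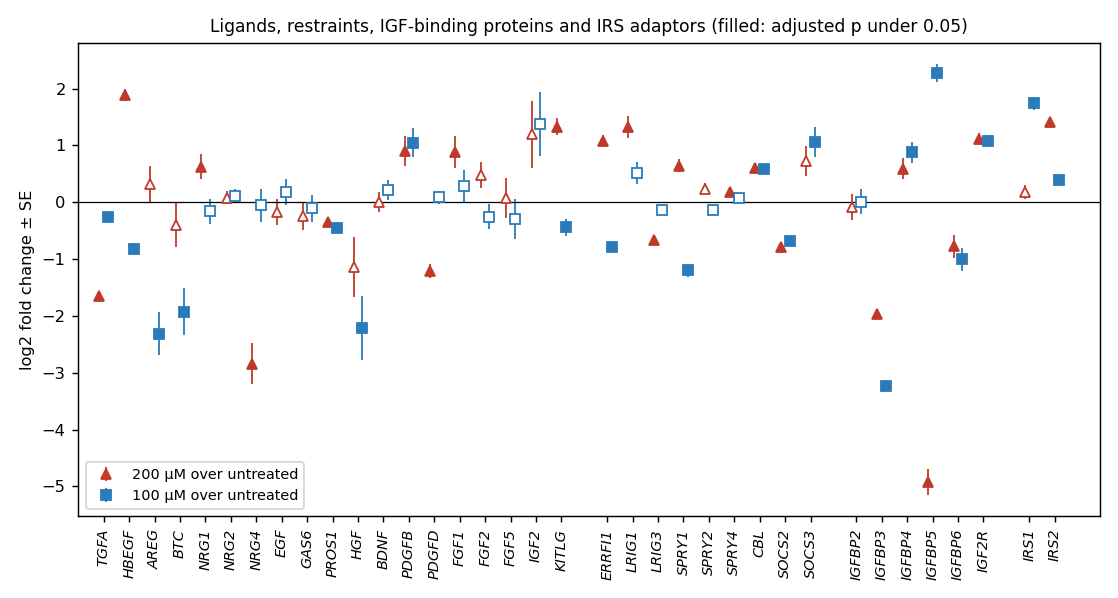
Log2 fold change with its standard error (vertical axis) of the ligands, receptor restraints, IGF-binding genes and IRS adaptors (horizontal axis), with triangles for 200 µM and squares for 100 µM over untreated cells; filled marks have an adjusted p under 0.05. *HBEGF*, *ERRFI1* and *SPRY1* lie above 0 at 200 µM and below 0 at 100 µM, and *IGFBP5* does the reverse.

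Genes that restrain receptor signalling were called higher in 7 and lower in 2 of 17 tested at 200 µM (median 0.24), beside 19.8% higher and 17.5% lower over all genes. At 100 µM they were higher in 5 and lower in 3 (median −0.13), beside 18.9% and 18.2% over all genes. *ERRFI1*, encoding the EGFR-family inhibitor MIG6, had 642, 582 and 741 CPM at 200 µM against 305, 311 and 309 CPM in untreated cells (1.09 ± 0.09, adjusted p = 3.9e-05). At 100 µM it fell by 0.78 ± 0.09 (adjusted p = 2.7e-04). *SPRY1*, a feedback inhibitor of RAS signalling, did likewise, at 0.65 ± 0.12 for 200 µM and −1.20 ± 0.12 for 100 µM. *LRIG1*, which promotes degradation of ERBB receptors and shares 12.9% of its exon bases with *SLC25A26*, rose by 1.33 ± 0.19 at 200 µM.

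The ubiquitin ligase gene *CBL* rose by 0.60 ± 0.08 at 200 µM and 0.58 ± 0.08 at 100 µM, and *SOCS2* fell by 0.79 ± 0.09 and 0.68 ± 0.09. *LRIG3* fell by 0.66 ± 0.08 at 200 µM, while *SOCS3* and *SPRED2* rose by 1.06 ± 0.26 and 0.51 ± 0.13 at 100 µM, the call of *SPRED2* being lost without untreated replicate 2. At 100 µM the restraint counts were 3 higher and 3 lower without untreated replicate 2, and 6 higher and 6 lower without the third 200 µM library. Without that library 10 rose and 3 fell at 200 µM, and with the GC trend removed as well 12 rose and 2 fell.

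Proteases that cut receptors and ligands from the surface were listed together with their cofactors and inhibitors, 9 genes in all. Of these 4 were higher and 1 lower at 200 µM (median 0.25), and 2 higher and 3 lower at 100 µM (median −0.03). Because the list mixes proteases and inhibitors, its counts give no direction of shedding. Over all genes 19.8% were higher and 17.5% lower at 200 µM, and 18.9% and 18.2% at 100 µM. With the GC trend removed 4 of the genes rose and 3 fell at 100 µM, and 4 rose and 5 fell when the third 200 µM library was left out as well. *TIMP1* and *TIMP3*, protease inhibitors, rose by 0.90 ± 0.10 and 0.55 ± 0.07 at 200 µM and fell by 0.54 ± 0.10 and 0.30 ± 0.07 at 100 µM. *RHBDF2*, a cofactor of the sheddase ADAM17, rose by 1.0 ± 0.18 and 1.17 ± 0.18, and *ADAM12* fell by 0.98 ± 0.17 and 0.59 ± 0.17 at 200 and 100 µM. *ADAM9* rose by 0.48 ± 0.10 at 100 µM. The call of *ADAM12* at 100 µM was lost without any 1 of the 6 libraries compared, and that of *TIMP3* there without 100 µM replicate 1 or 2. Without 100 µM replicate 1 or 2 just 1 gene fell at that dose, and without the third 200 µM library 6 rose and 2 fell at 200 µM.

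Of 14 target genes of the ERK pathway, 9 rose and none fell at 200 µM (median 0.32), while 3 rose and 5 fell at 100 µM (median −0.17). Over all genes 19.8% rose and 17.5% fell at 200 µM, and 18.9% rose and 18.2% fell at 100 µM. With the GC trend removed 7 of the targets rose and 2 fell at 200 µM, and 1 rose and 5 fell at 100 µM. *DUSP5*, an ERK phosphatase, had 196 ± 44.0 CPM at 200 µM against 31.9 ± 0.791 CPM in untreated cells (2.62 ± 0.16, adjusted p = 6.5e-06) and fell by 1.31 ± 0.16 at 100 µM. *FOSL1*, an AP-1 subunit, rose by 2.12 ± 0.16 at 200 µM (adjusted p = 2.5e-05) and was at 0.02 ± 0.16 at 100 µM. *EGR1* rose by 2.01 ± 0.16 at 200 µM and 0.60 ± 0.16 at 100 µM, where its call was lost without untreated replicate 2 or 100 µM replicate 1. *CCND1*, cyclin D1, fell by 1.05 ± 0.10 at 100 µM, as did *IER3* by 1.03 ± 0.13; the exons of these genes overlap *LTO1* and *IER3-AS1* by 10.3% and 26.5%. *ETV5* and *ETV4* rose by 0.54 ± 0.10 and 0.51 ± 0.10 at 100 µM, and *ETV4* was not called with the GC trend removed (0.16). Without any 1 untreated library or 200 µM replicate 1, 5 of the genes were called higher at 200 µM. Without the third 200 µM library 11 rose and 1 fell there, and 4 rose and 8 fell at 100 µM.

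Regulators of melanoma cell state, among them the AP-1, TEAD and SOX factors, were higher in 12 and lower in 3 of 25 at 200 µM (median 0.47), and higher in 11 and lower in 2 at 100 µM (median 0.37), where 37.3% and 37.1% of all genes were called in either direction. *JUN*, an AP-1 subunit, had 73.6, 79.2 and 64.5 CPM at 200 µM against 10.3, 12.2 and 13.6 CPM in untreated cells, a log2 fold change of 2.59 ± 0.12 (adjusted p = 2.2e-06). At 100 µM its value was 0.20 ± 0.12 (adjusted p = 0.23). *MITF*, the melanocyte lineage regulator, fell by 0.52 ± 0.15 at 200 µM, a call lost without any 1 untreated library or 200 µM replicate 1, and by 0.70 ± 0.15 at 100 µM. *SOX2*, a stem cell factor, fell by 0.91 ± 0.21 at 200 µM and rose by 1.56 ± 0.20 at 100 µM. *TEAD3* rose by 1.30 ± 0.12 and 1.19 ± 0.12 at 200 and 100 µM. *SMAD3*, a TGF-β effector, fell by 0.34 ± 0.07 at 200 µM, *RUNX2* rose by 1.05 ± 0.26 and *FOXD3* fell by 0.76 ± 0.21 at 100 µM. The *RUNX2* call was lost without untreated replicate 3, and that of *FOXD3* without untreated replicate 1 or 3 or 100 µM replicate 2 or 3. Without the third 200 µM library the counts were 14 higher and 7 lower at 200 µM, and 14 higher and 4 lower at 100 µM. At 100 µM 1 gene fell without untreated replicate 1 or 3 or 100 µM replicate 2 or 3, with 8 or 9 higher.

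Melanocyte markers were sparse, with 9 of 14 tested and medians of 0.36 at 200 µM and −0.16 at 100 µM. At 200 µM 3 rose and 2 fell: *DCT* (1.90 ± 0.54, at under 1 CPM), *PAX3* (0.53 ± 0.12) and *SOX10* (0.47 ± 0.11) were higher and *S100B* (−1.13 ± 0.10) and *MITF* lower. At 100 µM *SOX10* (0.63 ± 0.11) and *S100B* (0.58 ± 0.10) rose and *MITF* fell. Over all genes 37.3% were called at 200 µM and 37.1% at 100 µM. The *SOX10* calls were lost with the GC trend removed, leaving 1 higher and 1 lower gene at 100 µM, and the *DCT* call without untreated replicate 1 or 3. At 200 µM the counts were 2 higher and 1 lower without untreated replicate 1 or 3, and 3 higher and 1 lower without untreated replicate 2 or 200 µM replicate 1. Of the neural crest markers that accompany *NGFR* in melanoma, 4 of 5 were tested, with 3 higher and none lower at 200 µM (median 0.82) and 2 higher and 1 lower at 100 µM (median 0.60). *RXRG*, a nuclear receptor of the neural crest-like state, had 26.4 ± 2.71 CPM at 200 µM against 15.4 ± 1.77 CPM in untreated cells (0.78 ± 0.13, adjusted p = 0.0015) and fell by 2.34 ± 0.14 at 100 µM. *L1CAM* rose by 0.87 ± 0.11 at 200 µM and 1.02 ± 0.11 at 100 µM, *NES* by 1.07 ± 0.13 at 100 µM and *AQP1* by 1.51 ± 0.49 at 200 µM, where 26.5% of its exon bases overlap *AC004691.2*. The *AQP1* call was lost without untreated replicate 2, any 100 µM library or 200 µM replicate 1 or 2.

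Of the 7 leukocyte markers 3 could be tested, and they did not move one way: *CD14* (2.26 ± 0.47) and *CD68* (1.77 ± 0.17) rose at 200 µM, *LYZ* fell by 0.95 ± 0.26, and none was called at 100 µM, where *CD68* was called lower without the third 200 µM library. Over all genes 37.3% were called at 200 µM and 37.1% at 100 µM. The sum of the 7 was 21.6 to 25.2 CPM in untreated cells, 18.1 to 20.2 CPM at 100 µM and 59.2 to 84.6 CPM at 200 µM, mostly *CD68*, a lysosomal gene, with means of 19.2, 15.5 and 65.5 CPM in the same order. Of the exon bases of *CD68* 81.7% overlap *AC016876.2* on the same strand, and of those of *LYZ* 34.0% overlap *AC020656.1* on the opposite strand, so both counts are uncertain. The *LYZ* call was lost without untreated replicate 1. The part of such cells in the receptor results was not tested. The defining marker *CD3E* had 0 reads in every library, and *PTPRC* had at most 3. Of the epithelial markers, *KRT5* was at 0, and *EPCAM*, *CDH1* and *KRT19* had at most 12 reads in any library. The sum of the 7 was 235 to 244 CPM in untreated cells, 311 to 344 CPM at 100 µM and 299 to 396 CPM at 200 µM. It was mostly *KRT18*, with means of 192, 271 and 303 CPM in the same order, and *KRT8*, with 46.0, 57.7 and 43.1 CPM. Exons of *KRT18* overlap *KRT8* on the opposite strand by 16.3%, so its count is uncertain.

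Beside the 10 receptors, 49 other receptor tyrosine kinases were listed and 32 could be tested. At 200 µM 8 rose and 4 fell, with a median of 0.02 beside 0.54 for the 9 tested receptors described here. At 100 µM 15 rose and 3 fell, with a median of 0.43 beside 0.74. Over all genes 37.3% were called at 200 µM (19.8% higher) and 37.1% at 100 µM (18.9% higher), so the count at 200 µM was near that of all genes. The ephrin receptor *EPHB1* rose by 1.22 ± 0.18 at 200 µM and 1.28 ± 0.18 at 100 µM, *EPHB2* by 1.05 ± 0.11 at 200 µM and *EPHB3* by 1.33 ± 0.25 at 100 µM. The collagen receptor *DDR1* rose by 1.07 ± 0.28 at 200 µM, a call lost without untreated replicate 1 or 3, and *FGFR4* by 1.25 ± 0.26 at 100 µM. *EPHA7* fell by 1.99 ± 0.14 and *TIE1* by 1.34 ± 0.16 at 200 µM. *PDGFRA*, the partner of *PDGFRB*, fell by 0.88 ± 0.13 at 200 µM, with 15.8% of its exon bases shared with *AC058822.1*. At 100 µM *KDR*, a VEGF receptor, fell by 1.93 ± 0.15 and *ALK* by 2.79 ± 0.77, the *ALK* call being lost without untreated replicate 3 or 100 µM replicate 2. *ALK* had only 0 to 8 reads at 100 µM against 20 to 48 in untreated libraries. Without 200 µM replicate 2 the counts at that dose were 8 higher and 7 lower.

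With only the 2 groups compared in the fit, several of these list counts differed. At 200 µM 2 ligands rose and 4 fell, and 4 adaptors rose. At 100 µM 14 adaptors rose and 3 fell, 6 restraints rose and 6 fell, and 4 proteases, cofactors and inhibitors rose and 4 fell. There 4 ERK targets rose and 8 fell, 14 state regulators rose and 4 fell, and 18 other receptor kinases rose and 5 fell. The background moved too: over all genes 2128 rose and 1747 fell at 200 µM in these fits, and 4098 rose and 4319 fell at 100 µM. With all libraries 2760 rose and 2451 fell at 200 µM, and 2640 rose and 2541 fell at 100 µM. Without the third 200 µM library 3947 rose and 3667 fell at 200 µM, and 4056 rose and 3887 fell at 100 µM.

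For each receptor with reads, the 2 genes whose log2 CPM followed it most closely over the 9 libraries were taken from the other 13967 tested genes. The 9 points share their libraries and dose groups, so Pearson's r is given as a description. The closest to *NGFR* were *GATA2* and *VASN* (r = 0.996 each), and those to *AXL* were *NHERF1* and *HSPA5* (0.996 each). *HSPA5*, an endoplasmic reticulum chaperone, had 598 ± 4.14 CPM in untreated cells, 1193 ± 21.5 CPM at 100 µM and 1530 ± 93.0 CPM at 200 µM (SD, n = 3 each). *PDGFRB* was followed by *WFS1* (0.995) and *MPRIP* (0.994), and *ERBB2* by *AP2A1* (0.996) and *FASN* (0.994), the fatty acid synthase gene, with 95.6 ± 11.5 CPM in untreated cells, 301 ± 15.1 CPM at 100 µM and 219 ± 65.4 CPM at 200 µM.

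*ERBB3* was followed by *STAT3* and *ZMYM3* (0.996 each), and *IGF1R* by *ALPK2* (0.997) and *PCNT* (0.996). *STAT3*, a transcription factor downstream of cytokine and growth factor receptors, had 98.6 ± 1.66 CPM in untreated cells, 129 ± 3.13 CPM at 100 µM and 93.9 ± 2.08 CPM at 200 µM. *MET* was followed by *KRCC1* and *TMEM154* (0.997 and 0.996), *EGFR* by *RTL9* (0.983) and *DYM* (0.968), and *FGFR1* by *USP4* (0.974) and *HMGXB3* (0.971). Exons of *NHERF1*, *HMGXB3* and *ALPK2* overlap genes on the opposite strand by 11.3%, 13.7% and 23.6%, so their counts are uncertain.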

How the data were processed

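The deposited counts are whole-number reads per gene and library, without normalization; the submitters' processing notes name FastQC, HISAT2, featureCounts and DESeq2 with GRCh38 (hg38), with no versions or roles. The sources used here do not state which annotation release was counted or whether counting used strand. The authors' table of selected features held none of the receptors and was not used. From the 22605 rows, 2142 assembled transcripts (1.25 to 1.41% of counts per library) were left out; of 1012 genes without a symbol, 408 were named by identifier. Exon length, GC content and overlaps came from GENCODE v29 (GC known for 99.3% of tested genes), promoter bases from RefSeq.

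The 9 libraries in 3 groups were fitted together in edgeR 4.0.16 (R 4.3.3), with filterByExpr and TMM scaling. The quasi-likelihood F test had 6 residual degrees of freedom, with Benjamini-Hochberg adjustment over 13968 genes. The fit was checked on simulated data with the same spread setting for all genes, no library that stood apart and no GC trend. That check does not cover these features of the data. CPM are TMM-scaled, and p-values measure the spread between these libraries, pooled over the 3 groups. P-values and standard errors of the lower dose against untreated cells therefore also carry the spread of the higher dose. The library that stood apart belongs to the higher dose. Errors on log2 fold changes are standard errors. Alternatives were DESeq2 1.42.0, other scalings and filters, leaving out each library, a replicate block, the 2 groups compared alone, and removal of the GC trend (lowess span 0.3).

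All receptors are named; of each pathway list, the 3 called genes with the largest rise and the 3 with the largest fall per dose, and the 2 genes most like each receptor. Values at the other dose, and cell type markers, were chosen after their values were seen. A few genes that the rule or the lists hold are not reported here. Members and lists were chosen with earlier results of these data known. Exon overlaps of at least 10% are marked, and the 250 bases before each start were searched for motifs. Replicate libraries differed by more than counting noise (chi-square per degree of freedom 7.22 to 148). At this depth, a gene with 0 reads could still hold up to 3 reads per library, which covers counting error only.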

Additional observations from a re-analysis of the deposited data

How the results depend on the processing

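Of 513 receptor values under the alternatives, 479 kept their direction and their side of the threshold, 24 lost the call, 5 gained one and 5 turned round. The turned values were uncalled in the fit of all libraries too. *EGFR* at 100 µM ran from −0.0098 to 0.12 over the fits without 1 library each. *FGFR1* at 100 µM was −0.042 with the GC trend removed, −0.042 with the replicate block and GC correction together, and −0.041 with the GC correction without the third 200 µM library, an alternative chosen after seeing the data. The cause was not tested. At 200 µM against untreated cells 5211 genes were called, and 7921 with that added alternative. At 100 µM against untreated cells 5181 were called, 8417 with only those 2 groups in the fit, and 3469 to 7943 without 1 library each, the highest without the third 200 µM library.

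The replicate numbers gave no sign of pairing: same-numbered libraries' deviations from their group means correlated at −0.16 to 0.03, and a library correlated best with its own number in 2 of 18 pairings with another group. These values cannot show whether the samples were handled in pairs. With the replicate block 8 receptors were called at 200 µM against untreated cells, 6 at 100 µM and 7 between the doses, beside 8, 7 and 8 without it. Genes called under the block were 4369, 4264 and 5404 in the same order, and the receptor calls lost were *MET* at 100 µM and *FGFR1* between the doses. With 3 libraries per group, standard errors against untreated cells were 0.07 on the log2 scale for *AXL*, *ERBB3* and *IGF1R* and 0.09 for *FGFR1*. They were 0.12 for *MET*, 0.13 for *NGFR*, 0.15 for *EGFR* and *ERBB2* and 0.17 for *PDGFRB*. The errors did not simply follow the level, as *MET* averaged 114 CPM and *IGF1R* 82.9 CPM in untreated cells. The spread of the 200 µM libraries enters the errors of both doses. Its SD was 26.3 CPM for *MET* and 2.24 CPM for *IGF1R*, beside 1.15 and 3.83 CPM at 100 µM.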
